A study of Mus musculus with 25 samples.

Results

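Collagens are the main structural proteins of the extracellular matrix, and the genes whose symbol has the form Col, a number, a and a number were followed here in mouse lung. They were all rows of the count table whose Ensembl identifier maps to such a symbol, and there were 44 of them among 55421 genes. Each collagen is a trimer of α chains, and a type is built from 1 chain or from several chains that are separate genes. Fibrillar collagens form the tensile fibres of airway walls, vessels and pleura. Network-forming collagens include the type IV chains of basement membranes, and type VI collagen forms beaded microfibrils near cells. Associated collagens sit on the surface of fibrils, and transmembrane collagens are anchored in the cell membrane. By class there were 11 fibrillar, 9 network-forming, 6 microfibril-forming, 9 associated and 4 transmembrane members, and 5 others (Col7a1 of anchoring fibrils, the multiplexins Col15a1 and Col18a1, Col26a1 and Col28a1).

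The lungs came from female wild-type C57BL/6 mice given house dust mite extract or saline intranasally. The extract holds mite allergens and is used to model allergic airway disease. Strain is given as C57BL/6J in the sample labels and as C57BL/6cmdb in the design text. Groups of 5 mice received 100 µg and were killed at 12 weeks, received saline and were killed at 12 weeks, or were killed at 2 weeks after saline, 10 µg or 100 µg. The protocol calls the controls saline-treated and a label calls the same lungs untreated. Neither the mice's age nor the dosing schedule was given in the sources used here, so age, duration, schedule and anything else that set the 12-week and 2-week models apart cannot be told apart. Equal replicate numbers are not said to mark a shared cage or day.

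RNA of whole lung lobes was sequenced, and the deposited counts came to 25.4 M to 51.9 M per library in 24 libraries and to 7.23 M in replicate 4 of saline at 2 weeks. Replicate 2 of 100 µg at 2 weeks stood apart for collagens and is left out below beside each count it decides. The shallow library also held 27.8% nuclear ribosomal RNA and 9.80% mitochondrial counts. Levels below are CPM, counts scaled to a library of 1000000 reads, normalized by the trimmed mean of M values. Changes are log2 fold changes with their standard error (SE) from edgeR's quasi-likelihood test on all 25 libraries. A gene is called when its p, adjusted by Benjamini-Hochberg over 19654 genes, is under 0.05. Lung was the labelled tissue, and 9 alveolar type 1 markers summed to a CPM of 4061 to 6095 at 100 µg and 12 weeks and 7081 to 7995 in saline at 2 weeks. The saline label at 12 weeks went against the data. The summed CPM of 15 genes of allergic inflammation was 4939 to 16475 at 100 µg and 12 weeks and 5911 to 15104 in 12-week lungs labelled saline. It was 346 to 747 at 100 µg and 2 weeks and 463 to 643 in saline at 2 weeks. With 100 µg at 2 weeks, 0 of the 15 were higher and 0 lower than in saline. These genes therefore could not check the dose label at 2 weeks. Of the 15 tested, 14 were higher and 0 lower in 12-week lungs labelled saline than in saline at 2 weeks. Groups are therefore named by their labels, and every direction that involves 12-week lungs labelled saline rests on that label. Where a change between the models is given in saline, it is between libraries labelled saline. In whole lung, fewer cells of a type and less RNA per cell cannot be told apart. The p-values measure the spread between libraries, each from 1 lung as labelled, and no label gives a batch.

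Promoter windows, from 250 bases before to 50 bases after the annotated start, were found in RefSeq (GRCm38.p6) for 35 of the 44 genes. Those of 7 genes are printed because the results turn on them. Col1a2 and Col3a1 are abundant fibrillar chains called between the models, and Col6a5 and Col24a1 had the largest changes between the models. Col4a1 and Col4a2 are network chains that changed together, and Col4a4 is a network chain that was not called. The windows, 5′ to 3′ on the gene's strand, lie at chr6:4505368-4505667 (Col1a2, plus strand), chr1:45311288-45311587 (Col3a1, plus), chr9:105960594-105960893 (Col6a5, minus), chr3:145292222-145292521 (Col24a1, plus), chr8:11312777-11313076 (Col4a1, minus), chr8:11312555-11312854 (Col4a2, plus) and chr1:82586800-82587099 (Col4a4, minus). Capitals mark every match on either strand to the CCAAT box (letters CCAAT), to the core of a TATA box (letters TATAAA) or to a GC box (letters GGGCGG).
Col1a2: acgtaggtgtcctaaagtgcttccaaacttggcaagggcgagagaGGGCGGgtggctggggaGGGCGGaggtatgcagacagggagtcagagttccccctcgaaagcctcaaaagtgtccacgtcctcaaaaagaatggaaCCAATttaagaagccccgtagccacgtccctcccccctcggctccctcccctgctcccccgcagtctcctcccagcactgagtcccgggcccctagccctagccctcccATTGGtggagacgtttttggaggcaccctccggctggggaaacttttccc
Col3a1: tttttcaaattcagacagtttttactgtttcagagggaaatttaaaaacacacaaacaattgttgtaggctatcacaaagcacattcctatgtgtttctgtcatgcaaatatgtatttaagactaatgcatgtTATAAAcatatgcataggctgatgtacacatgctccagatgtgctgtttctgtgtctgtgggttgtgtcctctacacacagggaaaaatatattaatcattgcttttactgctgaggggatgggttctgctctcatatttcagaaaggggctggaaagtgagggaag
Col6a5: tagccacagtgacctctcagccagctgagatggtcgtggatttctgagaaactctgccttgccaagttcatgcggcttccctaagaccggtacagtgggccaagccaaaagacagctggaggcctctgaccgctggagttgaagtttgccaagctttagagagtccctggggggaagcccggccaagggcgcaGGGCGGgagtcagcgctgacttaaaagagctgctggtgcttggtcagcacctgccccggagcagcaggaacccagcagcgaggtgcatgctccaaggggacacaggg
Col24a1: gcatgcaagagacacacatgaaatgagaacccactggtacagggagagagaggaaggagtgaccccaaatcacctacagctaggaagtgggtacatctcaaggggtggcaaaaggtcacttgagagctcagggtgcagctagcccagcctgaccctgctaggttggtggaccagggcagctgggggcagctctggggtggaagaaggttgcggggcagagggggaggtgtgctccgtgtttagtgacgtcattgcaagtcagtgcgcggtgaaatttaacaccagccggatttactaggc
Col4a1: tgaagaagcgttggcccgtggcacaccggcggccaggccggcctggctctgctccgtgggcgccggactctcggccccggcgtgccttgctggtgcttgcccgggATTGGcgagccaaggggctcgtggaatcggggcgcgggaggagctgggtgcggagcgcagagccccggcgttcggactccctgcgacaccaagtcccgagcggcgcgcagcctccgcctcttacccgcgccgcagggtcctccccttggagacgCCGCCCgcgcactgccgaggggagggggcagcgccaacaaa
Col4a2: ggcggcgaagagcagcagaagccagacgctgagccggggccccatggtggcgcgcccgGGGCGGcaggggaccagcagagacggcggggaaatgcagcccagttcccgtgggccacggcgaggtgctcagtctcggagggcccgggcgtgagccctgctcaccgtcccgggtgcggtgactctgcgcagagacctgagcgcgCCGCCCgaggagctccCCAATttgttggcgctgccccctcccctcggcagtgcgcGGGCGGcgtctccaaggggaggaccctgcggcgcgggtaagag
Col4a4: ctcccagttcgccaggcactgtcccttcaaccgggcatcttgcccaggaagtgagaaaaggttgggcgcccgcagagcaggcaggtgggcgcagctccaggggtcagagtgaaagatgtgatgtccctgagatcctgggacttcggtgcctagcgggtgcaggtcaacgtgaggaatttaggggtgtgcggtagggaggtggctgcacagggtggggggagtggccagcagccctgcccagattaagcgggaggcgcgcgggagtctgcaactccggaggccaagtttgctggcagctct

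Matches differed among these windows and did not overlap each other in any of the 7. Col1a2 had 2 CCAAT and 2 GGGCGG matches, Col3a1 had 1 TATAAA match, at position -117 from the start, and Col6a5 had 1 GGGCGG match. The RefSeq start of Col1a2, at 4505618, differs from 4504814 in the annotation used for exons, so its matches depend on that choice. Col24a1 and Col4a4 held none of the 3 motifs in these bases. Among 38 collagen windows, which include alternative starts, 34.2% held CCAAT, 13.2% TATAAA and 60.5% GGGCGG. Among all 32851 windows of the same length the shares were 37.4%, 13.6% and 35.7%. The type IV genes lie head to head in pairs. Col4a1 and Col4a2 start 21 bases apart on opposite strands of chromosome 8, so that their windows share 78 bases, and Col4a3 and Col4a4 start 72 bases apart on chromosome 1.

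The 12-week lungs held more collagen RNA than the 2-week lungs, both at 100 µg and in the libraries labelled saline. Summed over all 44 genes, the lowest, median and highest libraries had 6825, 7968 and 9959.6 CPM at 100 µg and 12 weeks and 3805, 4257 and 6408 CPM at 100 µg and 2 weeks. In the libraries labelled saline they had 6411, 8072 and 9906 CPM at 12 weeks and 3214, 3587 and 3689 CPM at 2 weeks. No 12-week library overlapped a 2-week library on this sum, although replicate 2 of 100 µg at 2 weeks came within a few CPM of the lowest library labelled saline at 12 weeks. Of the 39 genes with counts high enough to test, 24 were higher and 2 lower in 12-week lungs labelled saline than in saline at 2 weeks. In that comparison 54.1% of all genes tested were called, 28.5% higher and 25.6% lower. At 100 µg, 23 were higher and 1 lower at 12 weeks than at 2 weeks, where 38.5% of all genes were called, 22.1% higher and 16.4% lower. The median log2 fold change of the 39 was 0.72 in the libraries labelled saline and 0.68 at 100 µg. Over all genes it was 0.04 and 0.02. The comparisons share no libraries, and 23 genes were called in the same direction in both, which is 88.5% of the 26 called in saline and 95.8% of the 24 called at 100 µg. Over all genes 5586 were called in the same direction in both, which is 52.5% and 73.8% of those called, and the difference from the collagens was not tested.

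**Figure D1:**
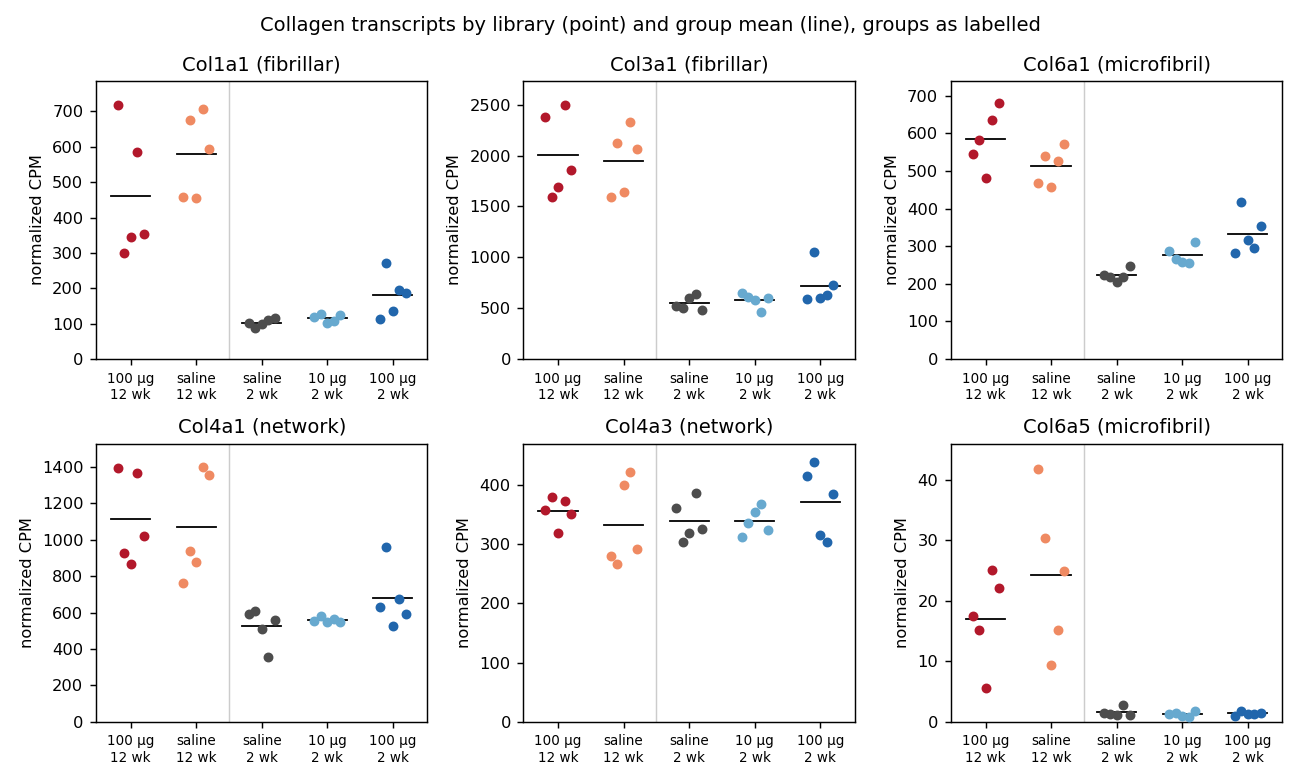
Normalized CPM (y axis, linear from 0) of 6 collagen genes in each library (points) with the group mean (line), grouped by dose and time as labelled (x axis). Both 12-week groups lie above the 2-week groups for Col1a1, Col3a1, Col6a1 and Col6a5, while Col4a3 overlaps in all 5 groups.

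Fibrillar collagens rose between the models. All 9 tested members were higher at 12 weeks than at 2 weeks in the libraries labelled saline, 6 of them without overlap, and 8 of 9 at 100 µg. In the same saline comparison 17.8% of all genes lay higher without overlap. Col1a1 encodes the chain present in 2 copies in type I collagen, the most abundant collagen of the body (ENSMUSG00000001506, chromosome 11, 94936224 to 94953042, plus strand, GRCm38). It had 457, 677, 456, 707 and 594 CPM in 12-week lungs labelled saline, against 101, 88.3, 97.9, 112 and 116 CPM in saline at 2 weeks. Every 12-week library was above every 2-week library, with a log2 difference of 2.49 (SE 0.23, adjusted p = 7.66e-09), or 5.62-fold. At 100 µg Col1a1 had 717, 299, 345, 586 and 354 CPM at 12 weeks, against 113, 272, 137, 194 and 185 CPM at 2 weeks. Replicates 1 and 4 at 12 weeks stood above the other 3, and the groups did not overlap, with a log2 difference of 1.35 (SE 0.22, adjusted p = 4.84e-05). Summed CPM of 9 leukocyte markers was 2660.0 and 2293 in those replicates and 1365 to 1647 in the other 3, and its part was not tested.

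Col1a2, the partner chain of type I collagen, rose too. It averaged 734 ± 146 CPM in 12-week lungs labelled saline and 209 ± 17.2 CPM in saline at 2 weeks (SD, n = 5 each), and the log2 fold change was 1.81 (SE 0.17, adjusted p = 9.40e-09). Col3a1, whose type III fibrils co-assemble with type I in distensible tissue, was the most abundant collagen of the 12-week lungs per kilobase of annotated exon. Its level was 2383, 1595, 1690.3, 2501 and 1855 CPM at 100 µg and 12 weeks, against 594, 1048, 596, 630.1 and 731 CPM at 100 µg and 2 weeks. Those groups did not overlap, although replicate 2 at 2 weeks stood far above its group (log2 fold change 1.48, SE 0.16, adjusted p = 3.69e-07). In the libraries labelled saline Col3a1 had 1592, 2122, 1642, 2329 and 2063 CPM at 12 weeks, against 519.8, 506, 597, 636 and 482 CPM at 2 weeks, a log2 difference of 1.83 (SE 0.16, adjusted p = 4.42e-09).

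Type V chains, which nucleate and set the width of type I fibrils, rose as well in the libraries labelled saline. Col5a1 had a lowest, median and highest level of 103, 134 and 181 CPM in 12-week lungs labelled saline and 43.3, 56 and 61.5 CPM in saline at 2 weeks, and Col5a2 had 199, 302 and 341 CPM and 108, 117 and 127 CPM. Neither overlapped. In saline the log2 fold changes at 12 weeks against 2 weeks were 1.34 for Col5a1 (SE 0.18), 1.28 for Col5a2 (SE 0.16) and 0.62 for Col5a3 (SE 0.26, adjusted p = 0.0439). At 100 µg they were 0.78, 1.21 and 0.48, and Col5a3 was not called (adjusted p = 0.131). Without replicate 2 at 100 µg and 2 weeks, which was far above its group for Col5a3, that change was 0.81. The Col5a3 call in saline was the least firm of the class and was lost on leaving out replicate 1, 3, 4 or 5 of saline at 2 weeks or replicate 4 or 5 labelled saline at 12 weeks, at log2 fold changes of 0.47 to 0.66. Col24a1, a minor fibrillar collagen known from bone and cornea, had the largest change of the class. It stood at 7.42, 9.8, 2.5, 8.6 and 11.3 CPM in 12-week lungs labelled saline, against 0.666, 0.439, 0.935, 0.875 and 0.956 CPM in saline at 2 weeks. Replicate 3 was far below the other 4 at 12 weeks and still above all of saline at 2 weeks (log2 fold change 3.39, SE 0.43, adjusted p = 6.59e-07). At 100 µg and 12 weeks Col24a1 was at 7.64, 2, 2.49, 10.1 and 2.73 CPM, high in the same replicates 1 and 4 as Col1a1, against 0.618 to 0.997 CPM at 100 µg and 2 weeks. Col11a2 and Col27a1 rose by 0.72 and 0.58 in saline and by 0.91 and 0.45 at 100 µg. Col11a2 is known as a cartilage fibril chain. Levels in saline were 1.28, 2.5 and 3.15 CPM at 12 weeks and 1.22, 1.33 and 1.8 CPM at 2 weeks for Col11a2 (lowest, median, highest), and 18.9, 26 and 32.2 CPM and 14.9, 15.3 and 20.3 CPM for Col27a1. Both overlapped between these groups. The Col27a1 call at 100 µg was lost without replicate 1 or 4 at 2 weeks or replicate 2 or 5 at 12 weeks, and the Col11a2 call in saline without replicate 4 or 5 labelled saline at 12 weeks.

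Microfibril-forming type VI genes rose in both comparisons of the models, all 6 of 6 in each. Col6a1, Col6a2 and Col6a3 encode the chains of the classical trimer, and Col6a4, Col6a5 and Col6a6 encode chains that can take the place of the third. Col6a1 had 467, 540.5, 457, 528 and 572 CPM in 12-week lungs labelled saline, against 225, 219, 204, 218 and 247 CPM in saline at 2 weeks. The spread within each group was small beside the difference, and the groups did not overlap (log2 fold change 1.20, SE 0.11, adjusted p = 4.42e-09). Col6a2 and Col6a3 rose by 1.45 (SE 0.14) and 1.21 (SE 0.14) in saline and by 0.99 and 0.71 at 100 µg, and in saline none of the 3 overlapped. In 12-week lungs labelled saline and in saline at 2 weeks, Col6a2 had 326, 431 and 463 CPM and 134, 139 and 161 CPM (lowest, median, highest), and Col6a3 had 341, 458 and 499 CPM and 166, 189.8 and 216 CPM. Col6a5 (ENSMUSG00000091345, chromosome 9, 105856078 to 105960643, minus strand) had the largest change of the family. Its level was 41.7, 30.4, 9.37, 15.1 and 25 CPM in 12-week lungs labelled saline, against 1.41, 1.21, 1.14, 2.84 and 1.11 CPM in saline at 2 weeks. At 100 µg it was 17.6, 15.1, 5.52, 25.1 and 22 CPM at 12 weeks, against 1, 1.83, 1.26, 1.36 and 1.51 CPM at 2 weeks. No 12-week library overlapped a 2-week one, and the log2 fold changes were 4.19 in saline (SE 0.40, adjusted p = 1.60e-08) and 3.61 at 100 µg (SE 0.38, adjusted p = 2.97e-07). Col6a4 rose by 2.72 and 1.54 and Col6a6 by 1.64 and 0.78 in saline and at 100 µg, at levels of at most 3.82 CPM in any library, and the Col6a6 call at 100 µg was lost without replicate 1 or 3 at 2 weeks or replicate 1 at 12 weeks. Lowest, median and highest levels of Col6a4 were 1.88, 2.93 and 3.82 CPM in 12-week lungs labelled saline and 0.178, 0.483 and 0.656 CPM in saline at 2 weeks. For Col6a6 they were 1.84, 2.54 and 3.3 CPM and 0.556, 0.935 and 1.53 CPM. Both overlap antisense transcripts in the annotation, as do Col4a1, Col4a2, Col4a3, Col5a1, Col9a3, Col10a1, Col15a1 and Col22a1. Col3a1, Col7a1 and Col20a1 overlap transcripts on their own strand, and the strand setting of the counter was not given in the sources used here.

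Of 8 network-forming members tested, 2 were higher at 12 weeks than at 2 weeks in saline and 3 at 100 µg. Col4a1 and Col4a2 make up the type IV trimer found in most basement membranes, while Col4a3 and Col4a4 join Col4a5 in a trimer of glomerular and alveolar basement membranes. Col4a1 (ENSMUSG00000031502, chromosome 8, 11198423 to 11312826, minus strand) had 762, 939, 879.7, 1403 and 1358 CPM in 12-week lungs labelled saline, against 594, 607, 510.5, 353 and 559 CPM in saline at 2 weeks. The groups did not overlap, and replicate 4 of saline at 2 weeks, the shallow library, was the lowest. The log2 fold change was 1.02 (SE 0.18, adjusted p = 4.43e-05), and 0.90 without that library. Col4a2 followed at 1.04 (SE 0.20), and at 100 µg the changes were 0.72 and 0.62, where both genes overlapped between the groups through replicate 2 at 2 weeks. Col4a3 was not called in any of the 7 comparisons, with 280.4, 267, 399, 422 and 292 CPM in 12-week lungs labelled saline, against 361, 304, 319, 387 and 326 CPM in saline at 2 weeks. The 2-week range lay inside the 12-week range, with a log2 difference of -0.03 (SE 0.12). Col4a4 stood at 0.03 in saline (SE 0.13) and 0.08 at 100 µg (SE 0.13). Col4a5 was called at 100 µg, at 0.55 (adjusted p = 0.0308), and stood at 0.40 in saline (adjusted p = 0.0946). The Col4a5 call was lost without replicate 1, 3, 4 or 5 at 2 weeks or replicate 2, 4 or 5 at 12 weeks, at log2 fold changes of 0.47 to 0.53, and the Col4a2 call at 100 µg without replicate 4 at 12 weeks, at 0.49. Col4a6, Col8a1 and Col8a2, the last pair being short-chain collagens of vessel walls and of the corneal endothelium, were called in none of the 7 comparisons.

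The ratio of Col4a3 to Col4a1 counts within a library, which needs no scaling between libraries, was lower at 12 weeks. It ran from 0.256 to 0.41 at 100 µg and 12 weeks, against 0.45 to 0.656 at 100 µg and 2 weeks. In the libraries labelled saline it ran from 0.215 to 0.454 at 12 weeks, against 0.501 to 1.09 at 2 weeks, where replicate 4 was the highest. The groups overlapped in neither comparison, although the highest value labelled saline at 12 weeks lay above the lowest value of 100 µg at 2 weeks. Col1a1 counts relative to Col1a2 ran from 0.68 to 0.945 in 12-week lungs labelled saline, against 0.444 to 0.603 in saline at 2 weeks, with no overlap. At 100 µg the ratio ran from 0.512 to 0.763 at 12 weeks, against 0.495 to 0.672 at 2 weeks, and the groups overlapped.

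**Figure D2:**
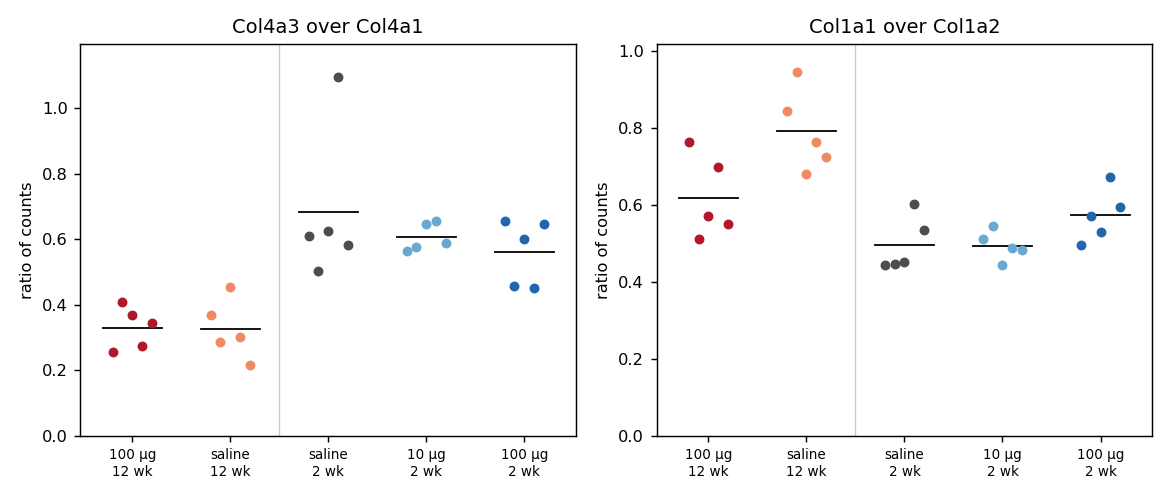
Ratio of counts within each library (y axis, no unit, from 0) of Col4a3 over Col4a1 (left) and Col1a1 over Col1a2 (right), by group as labelled (x axis), with points for libraries and lines for group means. Col4a3 over Col4a1 lies at 0.215 to 0.454 in the 10 libraries of 12 weeks, and Col1a1 over Col1a2 is highest in 12-week lungs labelled saline, at 0.680 to 0.945.

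Among associated collagens, which decorate fibrils through interrupted triple helices, Col12a1 went the other way. Col12a1, known from dense connective tissue around tendon and fascia, had 63.2, 74.6, 61.9, 91.2 and 79.5 CPM in 12-week lungs labelled saline, against 101, 98.7, 100.5, 105 and 109 CPM in saline at 2 weeks. All 12-week values lay below all 2-week values (log2 fold change -0.47, SE 0.11, adjusted p = 0.00121). At 100 µg it fell by 0.37 on the log2 scale (adjusted p = 0.0134), with replicates 2 and 4 of 12 weeks inside the 2-week range. Col14a1, which like Col12a1 binds the surface of type I fibrils, rose by 0.66 in saline and 0.47 at 100 µg (SE 0.11 and 0.11). It had 92.4, 94.6 and 124 CPM in 12-week lungs labelled saline and 55.8, 66.8 and 70.6 CPM in saline at 2 weeks (lowest, median, highest), with no overlap. Col16a1 rose by 1.18 and 0.90, and in 12-week lungs labelled saline it stood at 19.3, 23.7, 36.6, 49.2 and 49.2 CPM, with replicates 1 and 2 lowest, against 14 to 16.8 CPM in saline at 2 weeks. Col22a1, known from tissue junctions such as that of muscle and tendon, rose by 2.06 and 1.73 at levels of at most 1.38 CPM. Col20a1 was called in saline, at 0.56 (adjusted p = 0.012), and stood at 0.28 at 100 µg (adjusted p = 0.226). Col9a3 and Col19a1 were called in no comparison.

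Anchoring and multiplexin collagens also rose at 12 weeks. Col15a1 and Col18a1 are basement membrane collagens with a proteoglycan part, and Col18a1 is the source of endostatin. Col15a1 (ENSMUSG00000028339, chromosome 4, 47208161 to 47313167, plus strand) had 41, 58.5, 32.6, 47.7 and 44.8 CPM in 12-week lungs labelled saline, against 11.6, 9.68, 15.9, 11.6 and 12.9 CPM in saline at 2 weeks. The groups stood well apart (log2 fold change 1.86, SE 0.18, adjusted p = 2.23e-08), and at 100 µg the change was 0.76 (SE 0.18). Col18a1 rose by 1.09 in saline and 0.72 at 100 µg, and Col7a1, which anchors epithelial basement membrane to the stroma, by 1.01 and 0.81. Lowest, median and highest levels of Col18a1 were 66.4, 87.4 and 100.1 CPM in 12-week lungs labelled saline and 29.1, 41.2 and 42.8 CPM in saline at 2 weeks, and those of Col7a1 were 6.32, 8.22 and 14.5 CPM and 4.37, 4.92 and 5.21 CPM, without overlap for either gene. Col26a1 and Col28a1 were called in no comparison. None of the 4 transmembrane members was called higher at 12 weeks in saline or at 100 µg. Col17a1, a hemidesmosome protein of epithelium, was lower in 12-week lungs labelled saline than in saline at 2 weeks (log2 fold change -0.97, SE 0.28, adjusted p = 0.00479). Its levels there overlapped, at 2.04 to 5.69 CPM and 5.03 to 7.42 CPM. At 100 µg Col17a1 stood at -0.17 between the models and was not called, and Col23a1 and Col25a1 were called nowhere.

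**Figure D3:**
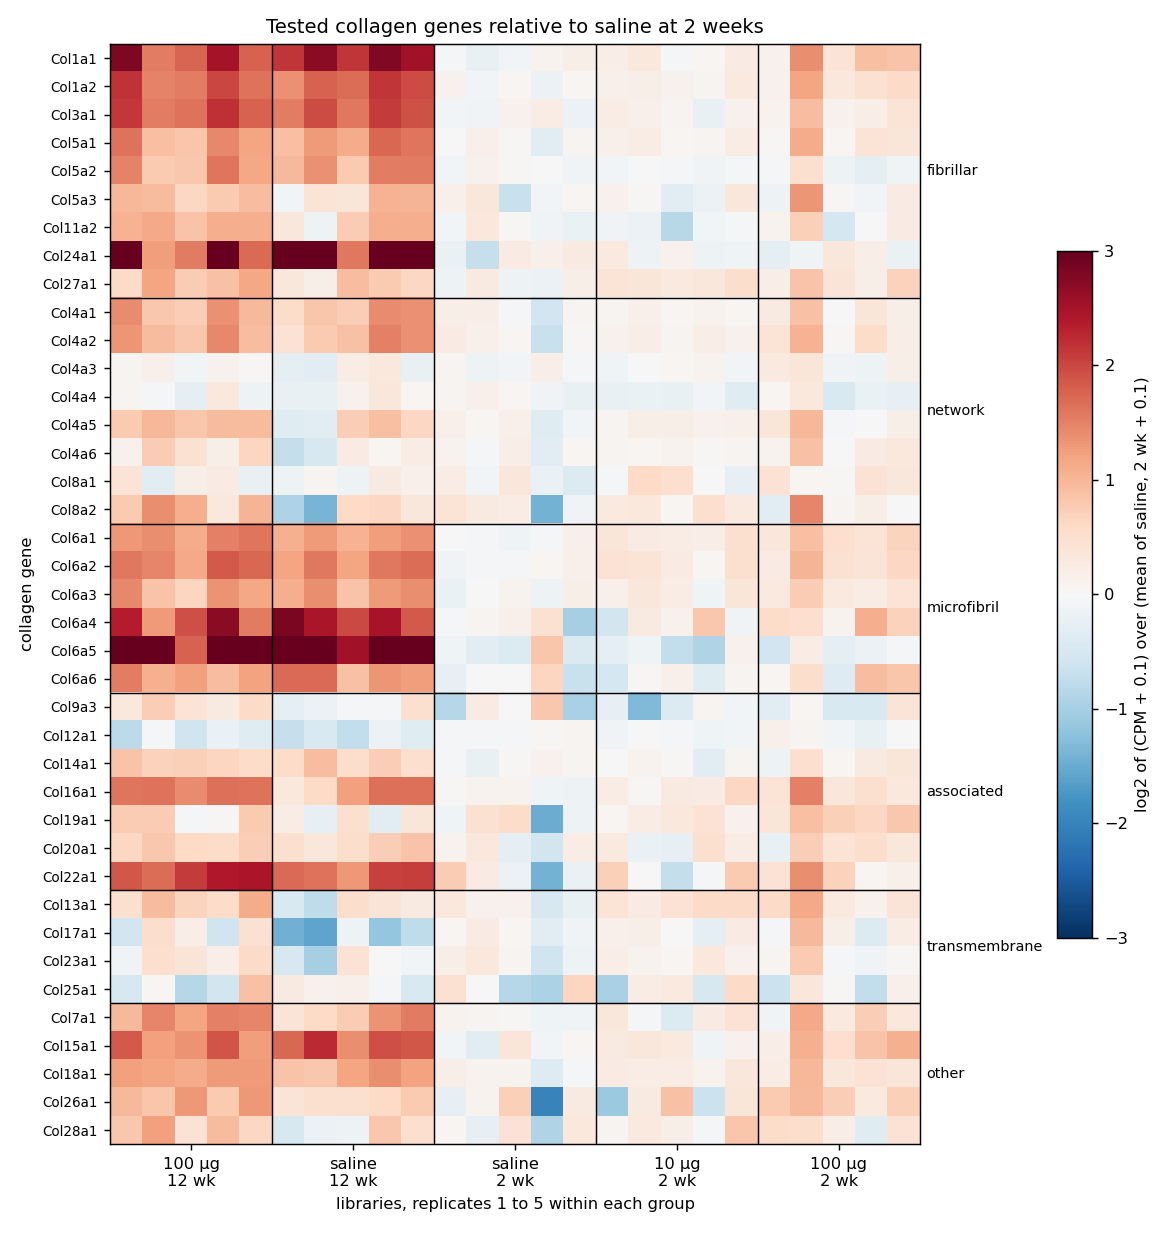
Colour gives log2 of CPM plus a pseudocount of 0.1 over the mean of saline at 2 weeks plus 0.1, for the 39 tested collagen genes (rows, by class) in each of 25 libraries (columns, replicates 1 to 5 per group). Values beyond 3 are drawn at that limit (highest 4.67). The 10 libraries of 12 weeks are mostly red for fibrillar and microfibril genes, and replicate 2 at 100 µg and 2 weeks is redder than its group across classes.

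At 2 weeks, the members higher with 100 µg were type I, type VI and multiplexin chains. Against saline, 6 of 39 members were higher and 0 lower (Col1a1, Col1a2, Col6a1, Col6a2, Col15a1 and Col18a1), where 8.13% of all genes were called, 4.12% higher and 4.01% lower. The median log2 fold change of the 39 was 0.39, with 36 of 39 above 0, and over all genes it was 0.00. Col6a1 had the smallest adjusted p of the family. It had 283, 417, 316, 296 and 355 CPM at 100 µg, against 225, 219, 204, 218 and 247 CPM in saline, with no overlap (log2 fold change 0.58, SE 0.10, adjusted p = 0.00246). Col6a2 rose by 0.58 (SE 0.14, adjusted p = 0.0135) and did not overlap either. Col15a1 stood at 14.3, 26.1, 17.6, 22.3 and 26 CPM at 100 µg, against 11.6, 9.68, 15.9, 11.6 and 12.9 CPM in saline, and replicate 1 at 100 µg overlapped the saline range (log2 fold change 0.78, SE 0.18, adjusted p = 0.0114). Col1a2 and Col18a1 rose by 0.58 (adjusted p = 0.031) and 0.48 (adjusted p = 0.0219). Col3a1 was not called, at 0.39 (SE 0.16, adjusted p = 0.114), and no network, associated or transmembrane member was. The Col1a2 and Col1a1 calls were also lost without replicate 2 or 3 of saline or replicate 4 at 100 µg, and that of Col1a2 without replicate 4 of saline or replicate 5 at 100 µg.

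This rise leaned on replicate 2 at 100 µg, which was the highest of its group in 32 of 39 members. Collagens took 0.679% of its counts, against 0.396 to 0.444% in the other 4 and 0.203 to 0.374% in saline at 2 weeks. Without it 2 members were called, Col6a1 and Col15a1, where 611 genes were called in all, and the median of the 39 fell to 0.23 with 31 above 0. In a fit of the compared groups alone 2 members were called, Col6a1 and Col6a2, where 244 genes were called in all. In replicate 2 the summed CPM of 6 pericyte markers was 446, against 260.2, 290.5, 388 and 328 in the other replicates of its group, and its 13 lung fibroblast markers summed to 4681 CPM, the lowest of the 5. Their part in the result was not tested.

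With 10 µg at 2 weeks no collagen gene was called against saline, and 8 of all 19654 genes were (0.0407%, of which 0.0305% higher and 0.0102% lower). At an unadjusted p under 0.05 there were 4 of 39 members in edgeR, beside 12.5% of all genes, and the DESeq2 Wald test called 0 members and 202 genes. Of the 39, 29 were above 0, with a median log2 fold change of 0.13, and over all genes the median was -0.01. Both doses were compared with the same saline libraries, so their values are given side by side only. For Col1a1 the levels were 88.3 to 116 CPM in saline, 101 to 128 CPM at 10 µg and 113 to 272 CPM at 100 µg. For Col6a1 they were 204 to 247, 256 to 311 and 283 to 417 CPM in the same order, with saline below every library of either dose. Between 100 µg and 10 µg no member was called, and 0 of all genes were (0%). At an unadjusted p under 0.05 in edgeR there were 8 of 39 members and 1666 genes, which is 8.48% of all. That comparison had a median of 0.26 over the 39 and of 0.01 over all genes. It includes replicate 2 at 100 µg, the highest of its group in 32 of 39 members.

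**Figure D4:**
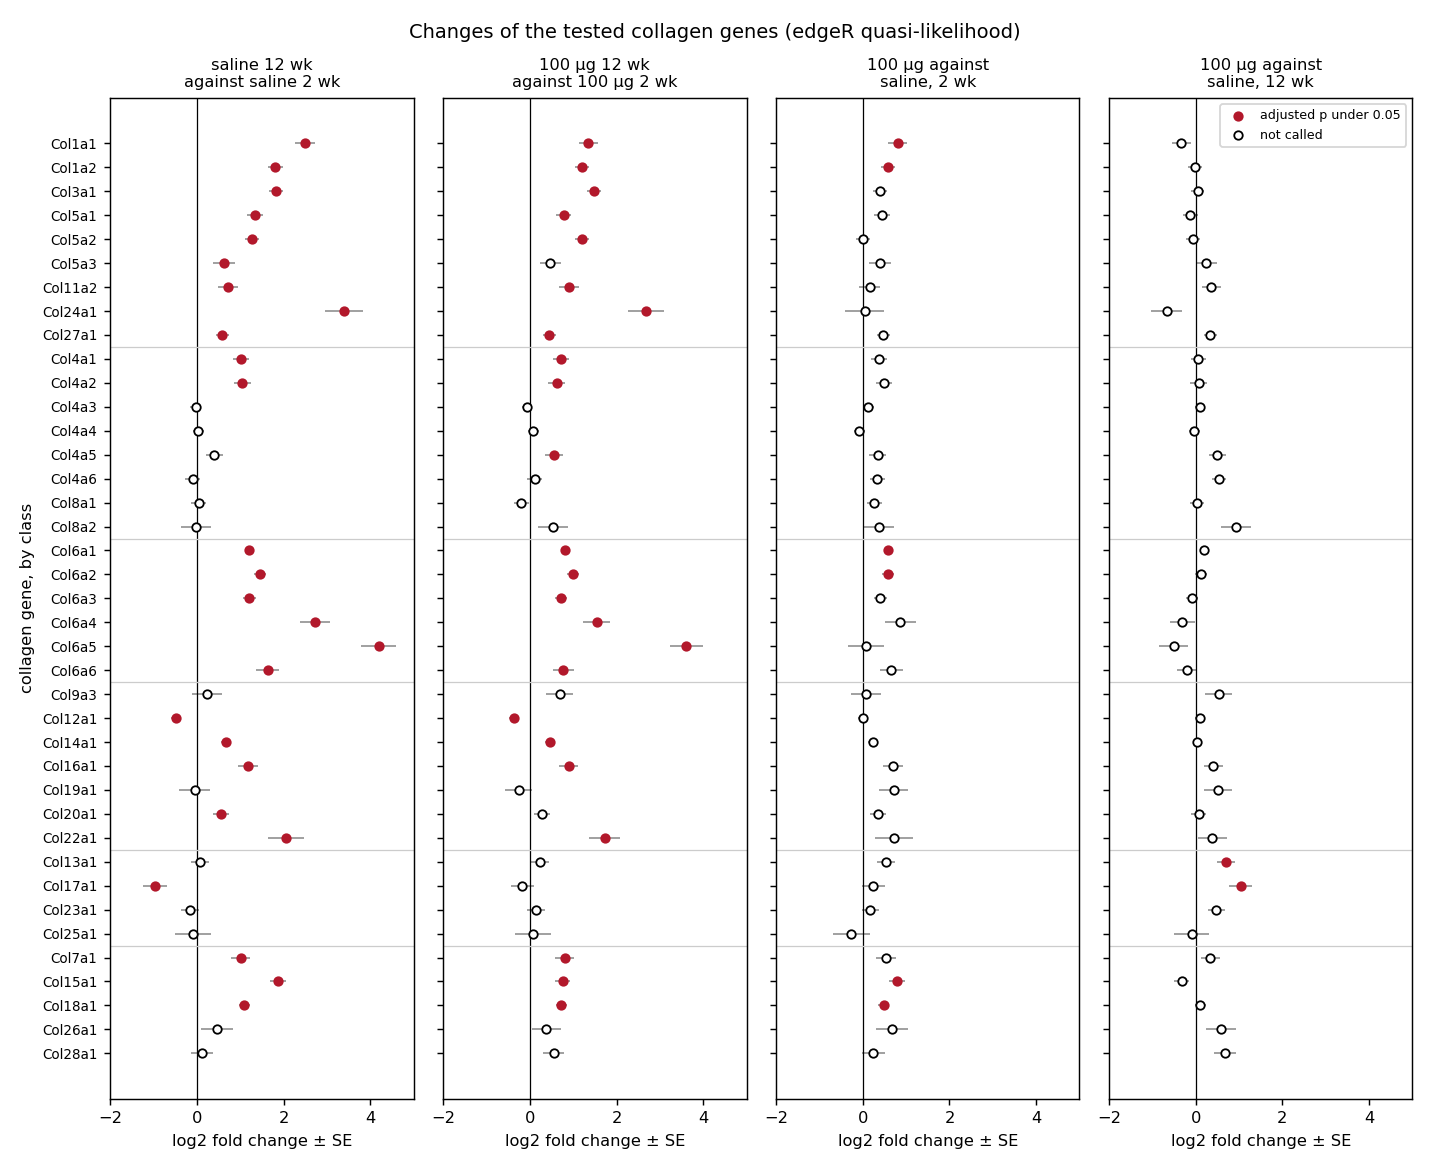
Log2 fold change with its SE (x axis) of each tested collagen gene (y axis, by class) in 4 comparisons, filled red where the adjusted p was under 0.05. Changes between the models (left pair) reach 4.19 for Col6a5, while 6 members were called at 100 µg against saline at 2 weeks and 2 at 12 weeks.

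At 12 weeks, 100 µg was compared with the libraries labelled saline. In this comparison 2 of 39 members were higher and 0 lower, Col13a1 and Col17a1, a share near that of all genes, of which 8.36% were called, 4.29% higher and 4.08% lower. Col13a1, found at cell adhesion sites and at the neuromuscular junction, had 60.7, 83.9, 69, 62.9 and 93.2 CPM at 100 µg, against 31.3, 25.5, 61.9, 56.9 and 52.5 CPM in the libraries labelled saline. Replicates 1 and 2 labelled saline were far below the other 3, of which replicate 3 lay within the range at 100 µg (log2 fold change 0.70, SE 0.21, adjusted p = 0.0406). Col17a1 had 4.19, 9.18, 7.25, 4.14 and 8.73 CPM at 100 µg, against 2.24, 2.04, 5.69, 2.76 and 3.68 CPM in the libraries labelled saline, and again the ranges overlapped (log2 fold change 1.04, SE 0.27, adjusted p = 0.0297). The same replicates 1 and 2 were the lowest of their group for Col4a5, at 58.5, 60.5, 125, 142 and 117 CPM, and for Col8a2, at 3.11, 2.24, 9.21, 9.32 and 7.62 CPM. They were also lowest for 6 pericyte markers, at 246 and 248 summed CPM beside 351 to 392 in the other 3. Of 9 endothelial markers 5 were higher and 0 lower with 100 µg, at 2866 to 3615 summed CPM with 100 µg, against 2577 to 3221 with the saline label. The part of these markers was not tested. Leaving out either of them, or replicate 2, 3 or 5 at 100 µg, left 0 members called, in fits that called 0 to 31 of all genes, and the fits with 6 members called 2462 and 3500 genes. Among fibrillar genes, which were not called, Col1a1 stood at -0.33 (SE 0.21, adjusted p = 0.305), Col3a1 at 0.04 (SE 0.15) and Col1a2 at -0.03 (SE 0.16).

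The effect of 100 µg differed between 12 and 2 weeks for 2 members in a test of the difference itself, both in the lower direction, where 8.26% of all genes were called, 4.74% higher and 3.52% lower. For Col1a1 the effect was -0.33 at 12 weeks and 0.81 at 2 weeks, a difference of -1.14 (SE 0.30, adjusted p = 0.0237). For Col15a1 it was -0.32 at 12 weeks and 0.78 at 2 weeks, a difference of -1.10 (SE 0.25, adjusted p = 0.011). Both rest on 12-week lungs labelled saline. Without replicate 3 or replicate 5 at 100 µg and 12 weeks 1 member was called, Col15a1, in fits that called 785 and 777 genes beside 1624 with all libraries. Col1a1 was then at -1.06 and -1.07, with adjusted p of 0.0501 and 0.0506. Without replicate 1 at 100 µg and 2 weeks, or at 100 µg and 12 weeks, 4 members and 1982 or 2602 genes were called, and on leaving out replicate 3 of the 12-week lungs labelled saline 5 members and 2186 genes.

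Levels of different genes were set side by side per kilobase of exon, as a description. The length used joins all annotated exons of a gene and can exceed that of the transcript expressed. It was 12426 bases for Col1a2 and 6563 for Col1a1, so the order depends on the annotation. In saline at 2 weeks the order was Col4a1 (70.3 ± 13.8 CPM per kilobase, mean ± SD, n = 5), Col4a2 (63.1 ± 13.7), Col3a1 (55.9 ± 6.67), Col6a1 (50.8 ± 3.55) and Col4a3 (34.1 ± 3.38). The first 4 overlapped their neighbours within 1 SD, and Col4a3 lay below them. At 100 µg and 12 weeks it was Col3a1 (204 ± 42), Col4a1 (149.5 ± 33.3), Col4a2 (137 ± 27.4), Col6a1 (134 ± 17.6) and Col1a1 (70.1 ± 27.7), and Col4a3 ranked 8. Col3a1 was also first in 12-week lungs labelled saline, at 199 ± 32.6 CPM per kilobase, ahead of Col4a1 at 143 ± 39.2. At the low end, Col6a5 ranked 31 in saline at 2 weeks and 21 in 12-week lungs labelled saline.

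The make-up of collagen counts shifted with these changes. Fibrillar genes held a median of 43.7% of collagen counts at 100 µg and 12 weeks, 45.7% in 12-week lungs labelled saline, 31.1% at 100 µg and 2 weeks and 28.5% in saline at 2 weeks. Network genes held 32.8%, 33.4%, 41.8% and 44.1% in the same order. Summed network CPM was nevertheless higher at 12 weeks, with lowest, median and highest values of 1833, 2396 and 3401 in 12-week lungs labelled saline and 1241, 1567 and 1755 in saline at 2 weeks. The shares are of a whole, so a class that rises more lowers the share of the others.

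The cartilage collagens were near 0 in nearly all lungs. Col2a1, Col9a1, Col9a2, Col10a1 and Col11a1, which form the fibrils and matrix of cartilage and its growth zone, did not pass the filter on low counts and were not tested. Replicate 5 at 100 µg and 2 weeks held 17 of the 40 counts of Col2a1 over all libraries, 19 of 60 of Col9a2, 15 of 18 of Col10a1 and 24 of 114 of Col11a1, and 3 of 14 of Col9a1. Of 12 cartilage markers, 7 were highest in that library and 5 were not. Acan, the core protein of cartilage aggrecan, was at 0.754 CPM there beside at most 0.0530 CPM in the other 24, and Cnmd at 0.492 CPM beside at most 0.110 CPM. Sox9, a transcription factor of cartilage cells, was at 1.64 CPM beside at most 3.43 CPM elsewhere, Hapln1 at 2.26 CPM beside at most 3.62 CPM, and Matn1 was at 0. Marker sums for fat (187 CPM beside 15.3 to 69.8 CPM in the other 24), cardiac muscle (1531 beside 82.2 to 1075 CPM) and skeletal muscle (32.9 beside 4.95 to 21.4 CPM) were also highest there. The part of these markers in the cartilage collagen levels was not tested.

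Genes that act on collagen were followed as lists beside the family, and over all genes the median log2 fold change was 0.04 in saline and 0.02 at 100 µg between the models. The shares of all genes called were 54.1% in saline and 38.5% at 100 µg between the models, 8.13% for 100 µg at 2 weeks and 8.36% at 12 weeks, and the counts of these lists stand beside those shares. Of 22 genes for chain hydroxylation, glycosylation and folding, 7 were higher and 8 lower in 12-week lungs labelled saline than in saline at 2 weeks, with a median of -0.05. The hydroxylysine galactosyltransferase gene Colgalt1 rose by 0.72 (SE 0.09), while its paralogue Colgalt2 stood lower at -1.05 and P4ha1, a prolyl hydroxylase subunit gene, at -0.82. At 100 µg 10 were higher and 4 lower at 12 weeks than at 2 weeks, with a median of 0.21. The lysyl hydroxylase genes Plod3 and Plod1 rose by 0.92 and 0.74, while Plod2, which hydroxylates the telopeptides where crosslinks form, stood at -0.74. With 100 µg at 2 weeks 1 was higher and 1 lower than in saline, a share near that of all genes, Fkbp10 at 0.76 and P4ha1 at -0.47, and at 12 weeks 4 were higher and 0 lower than in the libraries labelled saline.

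Among 17 tested genes of 20 for propeptide removal, crosslinking and fibril binding, 9 were higher and 2 lower in 12-week lungs labelled saline than in saline at 2 weeks (median 0.44), and 8 higher and 1 lower at 100 µg (median 0.31). Adamts2, the procollagen N-proteinase gene, had 125 ± 28.9 CPM in 12-week lungs labelled saline and 44.9 ± 6.07 CPM in saline at 2 weeks (SD, n = 5 each). It rose by 1.47 in saline and 1.08 at 100 µg, and the lysyl oxidase gene Loxl1 by 1.07 and 0.79. Dcn, which encodes the fibril-binding proteoglycan decorin, was lower by the same comparisons, at -0.74 and -0.80. With 100 µg at 2 weeks 4 of 17 were higher than in saline and 0 lower, Loxl1 at 0.56, the proteinase enhancer gene Pcolce at 0.52, the matricellular gene Sparc at 0.38 and Loxl4 at 0.65. At 12 weeks 1 was higher with 100 µg than in the libraries labelled saline, Pcolce2 at 0.95.

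Between the models, breakdown and uptake genes had medians above those of the crosslinking list and below those of the collagens. Of 20 tested of 21, 13 were higher and 2 lower in 12-week lungs labelled saline than in saline at 2 weeks (median 0.56), and 11 higher and 1 lower at 100 µg (median 0.58). Mmp12, the macrophage elastase gene, had 1274 ± 640.0 CPM in 12-week lungs labelled saline and 9.22 ± 2.92 CPM in saline at 2 weeks (log2 fold change 7.19, SE 0.70). In the same comparison the gelatinase gene Mmp2 rose by 1.76, the collagen-cleaving cathepsin gene Ctsk by 2.83 and the inhibitor gene Timp1 by 2.88. At 12 weeks 0 were higher and 2 lower with 100 µg than in the libraries labelled saline, the collagenase gene Mmp13 at -3.02 and Timp1 at -0.89. Of 12 collagen receptor genes, 4 were higher and 5 lower in 12-week lungs labelled saline than in saline at 2 weeks (median -0.15), with the adhesion receptor gene Adgrg1 at 0.87 and the integrin gene Itga1 at -0.68. Of 25 genes of TGF-β and type 2 fibrogenic signalling, 10 were higher and 2 lower, a share below that of all genes (median 0.10), with Tgfb1 at 1.82 and the matrix genes Fn1 at 2.07 and Tnc at 2.60.

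Cell type markers moved beside the collagens, and their counts stand beside the shares of all genes called. Those shares were 28.5% higher and 25.6% lower in saline between the models, and 22.1% higher and 16.4% lower at 100 µg. Of 13 lung fibroblast markers, 3 were higher and 8 lower in 12-week lungs labelled saline than in saline at 2 weeks, with summed CPM of 2741 to 4121 at 12 weeks and 5120.3 to 6349.9 at 2 weeks. Pdgfra, the receptor that marks lung fibroblasts, was among those lower, at 277 ± 29.9 CPM at 12 weeks and 559 ± 84.9 CPM at 2 weeks. All 9 leukocyte markers were higher, at 1834 to 2446 and 820.1 to 935 summed CPM, and 6 of 9 alveolar type 1 markers were lower, at 3259 to 4949 and 7081 to 7995. Of 9 endothelial markers 1 was higher and 6 lower, at 2577 to 3221 and 3262 to 4255. Of 6 pericyte markers 2 were higher and 1 lower, at 246 to 392 and 208 to 305. Of 8 smooth muscle markers 1 was higher and 1 lower. At 100 µg the 13 fibroblast markers summed to 3108 to 4376 CPM at 12 weeks and 4681 to 5421 CPM at 2 weeks, with 2 higher and 5 lower. None of these listed markers was at 0 in all 25 libraries, and their part in the collagen changes was not tested.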

How the data were processed

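RNA of whole lung lobes from 25 mice was sequenced with a stranded total RNA protocol, per the labels' protocols. Reads were aligned with STAR 2.5.3a to GRCm38, per the submitters' processing notes. Which counter made the table, with which strand option and gene annotation, is not given in the sources used here. The authors deposited raw counts per Ensembl gene, and 0 columns belonged to no labelled sample. Total counts were 25.4 M to 51.9 M in 24 libraries and 7.23 M in replicate 4 of saline at 2 weeks, so low genes are least precise there. All 300 pairs of libraries differed beyond sampling noise (chi-square per degree of freedom of at least 12.1).

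Gene symbols were looked up from a table of Ensembl identifiers, and 99.5% of rows had one. 1 listed collagen gene was not analysed here. Low genes were removed with filterByExpr, leaving 19654 genes, of which 39 were collagens. edgeR 4.0.16 in R 4.3.3 was fitted with TMM scaling and the quasi-likelihood test to all 25 libraries, which left 20 residual degrees of freedom, and p-values were adjusted by Benjamini-Hochberg. CPM and log2 fold changes were computed here. The test was checked on simulated counts. Named members are all collagens, with values by group for those called and reaching a group mean of 1 CPM. From other lists the genes named are among the 4 with the smallest p in a comparison, apart from marker genes of cartilage, which were chosen after their values were seen. The members and lists were chosen with earlier results of these data known. Alternatives were other scalings, filters and tests (DESeq2 1.42.0, limma 3.58.1), a replicate block, the compared groups alone and leaving out each library. Promoter sequences are RefSeq windows on GRCm38.p6.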

Additional observations from a re-analysis of the deposited data

Results flagged for a closer look

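Single libraries stood apart from the other 4 of their group by Dixon's criterion (0.71 for 5 samples) in 21 of 220 pairs of a member and a group, where chance gives about 1 in 20. In 5 of the 21 the other 4 libraries were at 0, so that any read sets the flag and the chance rate does not hold for them (Col9a1 in 3 groups, Col9a2 with 10 µg and Col10a1). At 100 µg and 2 weeks, replicate 2 was the high one for Col5a1 at 119 CPM, Col5a2 at 161 CPM, Col5a3 at 12.2 CPM, Col8a2 at 16.8 CPM, Col16a1 at 44.5 CPM, Col18a1 at 75.7 CPM and Col23a1 at 95.4 CPM. Replicate 5 of the same group was the high one for Col2a1 at 0.557 CPM, Col9a1 at 0.0984 CPM, Col9a2 at 0.623 CPM, Col10a1 at 0.492 CPM and Col11a1 at 0.787 CPM. With 10 µg at 2 weeks, replicate 3 was low for Col11a2 at 0.759 CPM, and replicate 4 was low for Col14a1 at 52.1 CPM and high for Col9a1 at 0.0313 CPM and Col9a2 at 0.0625 CPM. In saline at 2 weeks, replicate 4 was low for Col4a2 at 263 CPM and high for Col6a5 at 2.84 CPM, and replicate 3 was high for Col9a1 at 0.0346 CPM. At 12 weeks, replicate 3 of 100 µg was low for Col16a1 at 41.6 CPM, and replicate 5 labelled saline was high for Col9a3 at 0.854 CPM.

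The effect of 100 µg differed between 12 and 2 weeks for Col1a1, by -1.14 on the log2 scale, and for Col15a1, by -1.10, in edgeR's test of the difference. Both rest on the label of the 12-week saline lungs. The Col1a1 call was lost without replicate 3 or 5 at 100 µg and 12 weeks. The 2 calls are 5.13% of the 39 members, beside 8.26% of all genes.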

How the results depend on the processing

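Across the alternatives, 1155 of 1218 recomputed log2 fold changes of called members kept their direction and side of the threshold, 63 kept direction only and 0 reversed. That total pools all comparisons. Calls for 100 µg at 2 weeks were lost in 9 alternatives for Col1a2, 6 for Col1a1 and 3 for Col18a1. Col15a1 and Col6a2 lost theirs in 2 each, and the Col6a1 call was kept. At 12 weeks, calls for 100 µg were lost in 7 for Col13a1 and 6 for Col17a1. Between the models the most were 9 for Col5a3 in saline and 7 for Col4a5 at 100 µg. With 100 µg against saline at 2 weeks, 6 members and 1597 genes were called, against 2 and 244 in a fit of the compared groups only, 1 and 718 without both replicate 2 at 100 µg and replicate 4 of saline (chosen after seeing the data), and 2 to 8 leaving out each library. At 12 weeks it was 2 members and 1644 genes, against 5 and 2931 with the DESeq2 Wald test, 6 and 3072 with limma-voom, 1 and 1221 with the replicate block, 0 and 0 with the compared groups only, which says nothing of the family, and 0 to 6 members leaving out each library. For the difference of the 100 µg effects it was 2 members and 1624 genes, against 4 and 2459 with the DESeq2 Wald test and 1 to 5 leaving out each library. The count was 24 to 27 between the models in saline and 21 to 26 at 100 µg on leaving out each library, and it stayed at 0 for 10 µg against saline and for 100 µg against 10 µg under every alternative run. The cause of these shifts was not tested. Same-numbered libraries did not deviate together (50 pairs, correlations of -0.45 to 0.37, 4 over 0.1, 5 of 25 libraries best with their own number). Of 200 pairs of different number, 36 were over 0.1. This cannot tell whether equal numbers share a cage or day, and the main fit did not pair by number. The replicate block gave 5 members with 100 µg at 2 weeks. Counts of the 5 cartilage collagens reached at most 24 in a library, too few for the test.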
